A study of Mus musculus with 8 samples.

Results

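Digests of the ascending thoracic aorta of aged mice contained a small set of cells whose RNA carried genes of cartilage, tendon and joint surfaces. Whether these cells lay in the aortic wall itself or in attached tissue was not tested. The set was defined by 4 transcripts: Comp (cartilage oligomeric matrix protein, also called thrombospondin-5), Chad (chondroadherin, a leucine-rich protein that binds collagen), Prg4 (lubricin, the lubricant of joint surfaces) and Col2a1 (the chain of type II collagen, the main collagen of cartilage). A cell barcode belonged to the set when these 4 genes gave at least 5 unique molecular identifiers (UMIs, each standing for 1 captured RNA molecule) with at least 2 of the 4 detected. It also had at least 500 genes, at least 1000 UMIs and under 15% mitochondrial UMIs. Cells with more than 1 UMI of the endothelial genes Cdh5, Kdr and Cldn5, with more than 2 UMIs of Cd3d, Cd3e, Cd3g and Rag1, or with 0.4% or more of their UMIs from the smooth muscle genes Myh11 and Tagln were left out. The rule selected 59 of the 11301 barcodes that passed the cell filters, a share of 0.522% (exact binomial 95% interval, 0.398 to 0.673%), out of 26916 barcodes in all. The 4 genes chose the cells, so their own levels are a description and support nothing.

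Aortas of 3 wildtype mice aged 81, 84 and 88 weeks were digested with collagenase and elastase, freed of dead cells and measured by droplet RNA sequencing of transcript 3′ ends, with an antibody hashtag meant to mark each animal. All mice were aged and wildtype, with no younger or treated group. Strain and sex are not given in the sources used here. The 4 RNA libraries and 4 hashtag libraries come as 1 pooled count matrix, so the series gives 1 sample of each kind of cell and no test between groups: levels are summed UMIs per 1000000 (CPM) with exact Poisson 95% intervals, which cover counting error only.

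Cartilage is built by chondrocytes, which embed themselves in type II, IX and XI collagen and the large proteoglycan aggrecan under the transcription factors SOX9, SOX5 and SOX6. Tendon cells lay down fibromodulin, thrombospondins and type I collagen, with scleraxis (Scx), mohawk (Mkx) and tenomodulin (Tnmd) as their usual marks. Arterial walls, valve roots and their fibrous attachments share several of these matrix genes, and cartilage-like cells are known from the root of the aorta and from calcifying arteries of mice.

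The 59 cells held 505913 UMIs. A cell had 2938 UMIs at the lowest, 8054 at the median and 16588 at the highest. Their median mitochondrial share was 7.11%. For comparison, 1119 fibroblast comparison cells were taken by at least 5 UMIs of Dcn, Lum, Pdgfra, Col1a2 and Serpinf1 with at least 2 of them detected (median 7303 UMIs) and 4782 smooth muscle comparison cells by at least 1% of UMIs from Myh11 and Tagln (median 11386 UMIs). Both kinds had at most 1 UMI of the 4 defining genes. Of the 59 cells, 7 carried exactly 1 hashtag (2, 4 and 1 for the 3 hashtags), 51 carried none and 1 carried more than 1. That share of 11.9% (exact binomial 95% interval, 4.91 to 22.9%) stood beside 12.2% in fibroblast comparison cells, 11.4% in smooth muscle comparison cells, 83.0% in 2270 T cell comparison cells and 81.3% in 1141 endothelial comparison cells. Since only 7 of 59 cells could be given to an animal, the number of cells per animal is unknown and no comparison between animals was made. Whether cells without a hashtag came from the same loadings as the others was not tested. The doublet caller marked 0 of the 59 cells.

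Comp and Prg4 were the most widely held of the defining genes. Comp, at chr8:70373548-70382066 (GRCm38.p6), had a UMI in 51 of the 59 cells, with 0 UMIs in the lowest cell, 7 at the median and 92 in the highest. Prg4, at chr1:150449412-150466221, was in 46 cells, with a median of 6 UMIs and a highest of 60. Chad, at chr11:94565047-94569127, was in 26 cells and reached 55 UMIs in a cell. Col2a1, at chr15:97975602-98004724, was in 12 cells only, and a single cell held 205 of its 344 UMIs. The commonest combination was Comp with Prg4 and no other, in 32 cells. Comp, Chad and Col2a1 met without Prg4 in 6 cells. Chad with Prg4, Chad with Comp, and all of Chad, Comp and Prg4 made up 5 cells each. All 4 genes were found in 2 cells. Just outside the rule lay 64 cells with at least 5 UMIs from a single gene, 27 from Comp, 24 from Prg4 and 13 from Chad, with medians of 11, 10.5 and 7 UMIs, and 7 cells with a sum of 3 or 4. Just inside were 5 cells with a sum of 5 or 6.

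The label of chondrocyte- and tendon-like cells held for only some of the 59 cells. Of 10 chondrocyte markers (Acan, Col9a1, Col9a2, Col9a3, Col11a2, Matn3, Hapln1, Cnmd, Snorc and Sox9), 19 cells had at least 3 and 15 cells had none. A single cell of the 1119 fibroblast comparison cells had at least 3. Of 6 tenocyte markers, Fmod, Scx, Thbs4 and Kera were present, Tnmd gave 2 UMIs in 1 cell and Mkx gave none. Of 5 markers of the synovial lining, the tissue best known for Prg4 beside cartilage, Has1 and Tspan15 were at 0. Clic5 gave 1 UMI, Cd55 gave 43 and Htra4 was also detected. The 5 together had a UMI in 17 cells, with up to 23 in a cell, and summed to 109 CPM beside 258 CPM in fibroblast comparison cells. The cells are therefore called by their defining genes below. The 9 fibroblast markers summed to 26528 CPM in the set and 26884 CPM in fibroblast comparison cells. Dcn (decorin) was in all 59 cells, with a median of 101 UMIs. Dcn and Lum were in a larger share of the set than of fibroblast comparison cells, Lum in 94.9% against 90.2%. The other markers were in a smaller share, such as Pi16 (32.2% against 77.5%) and Dpt (64.4% against 91.6%). Dcn, Lum, Pdgfra, Col1a2 and Serpinf1 also chose the fibroblast comparison cells.

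Markers of several other cell types were at or near 0. The 7 mesothelial markers summed to 3.95 CPM with 5 of them at 0, the 6 Schwann and glial markers to 15.8 CPM, the 6 macrophage markers to 7.91 CPM and the 7 endothelial markers to 21.7 CPM. The 10 smooth muscle markers summed to 1299 CPM, beside 1451 CPM in fibroblast and 44018 CPM in smooth muscle comparison cells, with Myocd at 0. The rule limits Cdh5, Kdr and Cldn5 of the endothelial list and Myh11 and Tagln of the smooth muscle list. Myh11 and Tagln also chose the smooth muscle comparison cells. The endothelial and smooth muscle sums are therefore partly set by the selection. Globin and other erythroid RNA summed to 14429 CPM in the 59 cells and 11204 CPM in fibroblast comparison cells, and 1 cell of the set held 2464 of those UMIs. UMIs of Cd3d, Cd3e, Cd3g or Rag1 were in 20 of the 59 cells (33.9%) and in 21.3% of fibroblast comparison cells. The part of these in the results was not tested.

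**Figure D1:**
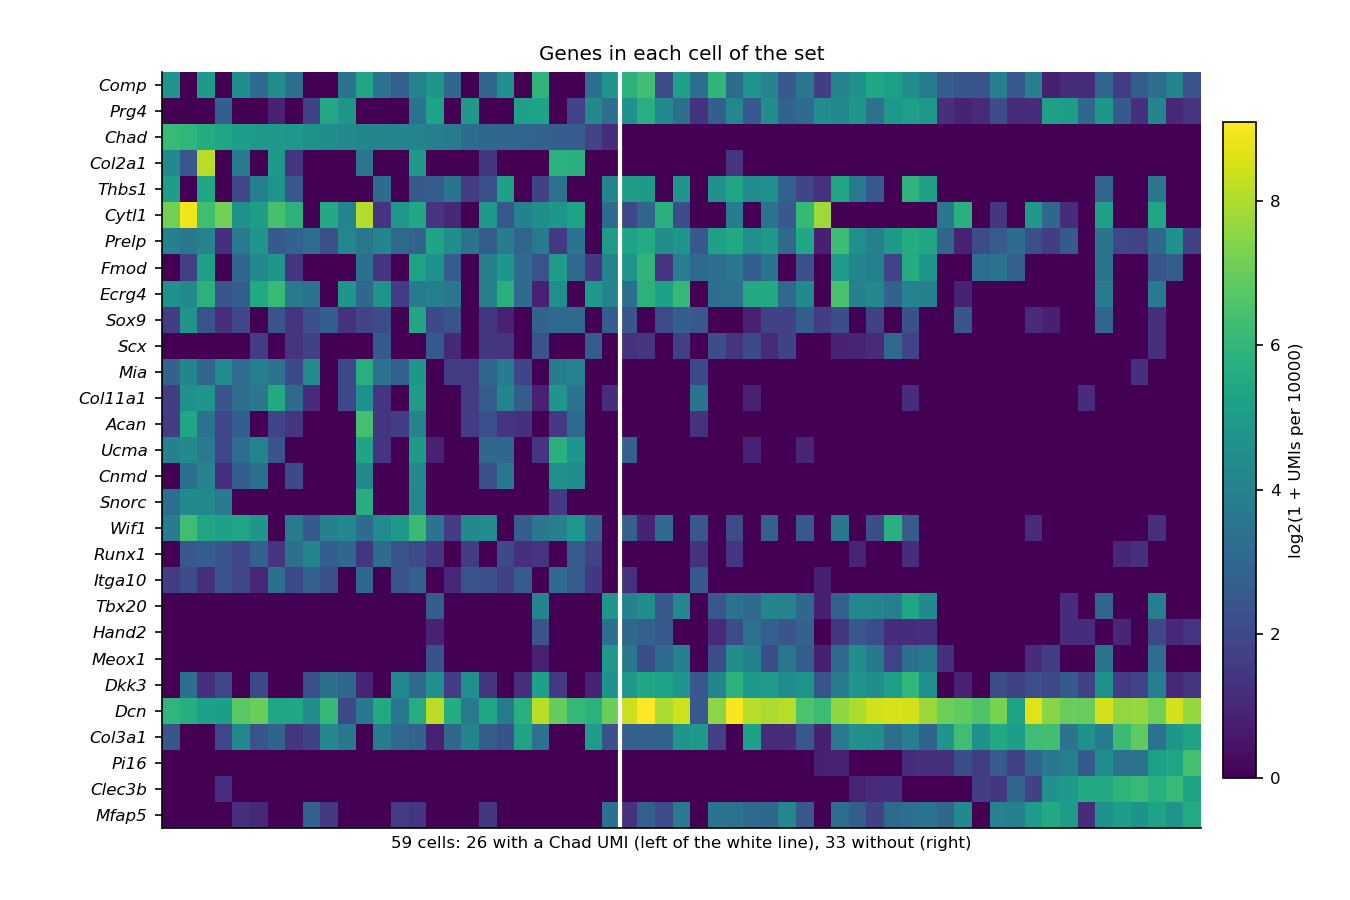
Each column is 1 of the 59 cells and each row a gene, coloured by log2(1 + UMIs per 10000). The 26 cells with Chad lie left of the white line, ordered by Chad, and the 33 without lie right of it, ordered by Pi16 plus Clec3b. Mia, Col11a1, Acan, Ucma, Cnmd and Snorc are seen mainly on the left, Tbx20, Hand2 and Meox1 in the middle, and Pi16 and Clec3b at the right edge.

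Against fibroblast comparison cells, the set had higher levels of cartilage matrix genes and lower levels of adventitial fibroblast genes. A gene counted as higher or lower when log2 of the ratio of CPM, after 10 CPM was added to both, was at least 1 in size with at least 50 CPM in the higher group, among genes with at least 20 CPM in either. Of 6675 such genes, 199 were higher (2.98%) and 175 lower (2.62%), with a median log2 ratio of 0.01. Of 199 higher genes, 49 were no longer past this fold once the cell with most of their UMIs was left out, so single cells carry part of the list. A gene that reached 20 CPM in a single group could not come out lower in that group. The counts of list genes, here and in the later comparisons, are therefore partly set by this filter.

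Thbs1 (thrombospondin-1, a secreted glycoprotein that can activate latent TGF-beta), at chr2:118111876-118127133, was not used by the rule. It stood at 1036 CPM (949 to 1128) in the set and 27.3 CPM in fibroblast comparison cells, a ratio between 32.5 and 44.5. Its UMIs came from 33 of the 59 cells, with a median of 2 and a highest of 49. Of 20 thrombospondins and matricellular proteins counted, 6 were higher (Thbs1, Thbs4, Ccn2, Spp1, Tnc and Tnn) and 2 lower (Ccn3 and Tnxb). Thbs1 and Ccn2 stayed past the fold without their own top cells, and Thbs4, Spp1, Tnc and Tnn did not. Ccn2, a growth factor of connective tissue, was at 1101 against 404 CPM. Tnxb (tenascin-X, which organises collagen fibrils) was at 57.3 against 416 CPM. Thbs2 at 109 against 87.1 CPM and Thbs3 at 27.7 against 62.9 CPM were not past the fold.

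Cartilage matrix genes made the widest difference. Leaving aside the 3 list genes used by the rule, 20 of the list passed the minimum level and 14 of them were higher, none lower, with a median log2 ratio of 3.50 (3.83 with genes at 0 in fibroblast comparison cells set to a floor of 3 counts over the group). Genes that reached the minimum level only in the set, such as Acan, Ucma and Col11a1, could not come out lower. The count and the median are therefore partly fixed by the filter. Of the 14, Col9a1 was not past the fold without its own top cell. Aggrecan (Acan) gave 171 UMIs in 18 cells, 338 CPM (289 to 393) against 1.30 CPM. Ucma, a cartilage protein of resting chondrocytes, gave 184 UMIs in 19 cells, 364 CPM against a single UMI in fibroblast comparison cells, with a ratio of 3082 (546 to 1.22e+05). Col11a1, the type XI collagen chain that seeds cartilage fibrils, was at 453 against 1.65 CPM, and Mia, a small secreted cartilage protein, at 427 against 11.9 CPM. Col9a2, a chain of type IX collagen on the surface of those fibrils, gave 76 UMIs in 12 cells and none in fibroblast comparison cells, at least 424-fold higher by the same floor. Prelp, a leucine-rich protein that links collagen to membranes, was high in both groups and reached 1674 CPM (1563 to 1791) against 262. Cilp (cartilage intermediate layer protein) at 94.9 against 64.3 CPM and Fibin at 237 against 115 CPM were not past the fold.

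The factors that build cartilage were present at lower levels. Of 19 chondrogenic and skeletal transcription factors, 9 were counted and 6 were higher, none lower: Sox9, Sox5, Sox6, Runx1, Trps1 and Foxc1. Sox9, the master factor of chondrocytes, stood at 295 CPM (249 to 346) against 45.6 CPM and had a UMI in 38 cells, with 0 in the lowest, 1 at the median and 25 in the highest. Of those 38 cells, 23 also had Sox5 or Sox6. Over the whole set, Sox5 or Sox6 was in 17 of the 26 cells with Chad and 14 of the 33 without. All of Sox5, Sox6 and Sox9 were in 9 of the 59 cells. Runx1 was at 158 against 20.9 CPM. Runx2, the factor of bone and of maturing cartilage, gave 11 UMIs, 21.7 against 4.96 CPM, and did not pass the fold.

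Genes of cartilage maturation and mineralisation were higher in count but rested on few cells. Of 11 counted, 7 were higher and 1 lower, Smpd3 (a sphingomyelinase). A single cell gave all 108 UMIs of Col10a1 (type X collagen, made by hypertrophic chondrocytes) and all 36 of Grem1 (gremlin, an antagonist of BMP). The same cell held 94 of the 171 Acan UMIs, 55 of the 110 Snorc UMIs and 2.20% of all UMIs of the set, and without it the log2 ratios of Col10a1 and Grem1 went from 4.46 and 3.00 to -0.02 each. Without that cell the cartilage matrix list kept its 14 higher genes, now of 19 counted. Another cell held 38 of 43 UMIs of Mmp13 (collagenase-3), and 2 cells held all 30 of Ibsp (bone sialoprotein). Spp1 (osteopontin) gave 39 UMIs, 33 of them in 1 cell. Enpp1 and Ank, which set extracellular pyrophosphate, were more widely spread, at 90.9 against 17.9 CPM and 79.1 against 30.7 CPM. Mgp (matrix Gla protein, an inhibitor of calcification) was the most abundant gene named here, at 26556 CPM against 16628 CPM, log2 0.68 and not past the fold. Of 5 osteoblast markers, Bglap, Bglap2 and Dmp1 gave 0 UMIs, as did the phosphatase gene Alpl, which allows up to 5.93 CPM. The other markers, Ibsp and Sp7, had UMIs in only 3 cells. The 5 together summed to 65.2 CPM in the set against 0.354 CPM in fibroblast comparison cells.

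The tendon list gave 6 higher genes and 1 lower of 11 counted, with a median log2 ratio of 1.40. Scx gave 59 UMIs in 24 cells, never more than 6 in a cell, 117 CPM (88.8 to 150) against 3.54 CPM. Fmod (fibromodulin, which governs the thickness of collagen fibrils) was at 1057 CPM (970 to 1151) against 109 CPM and was found in 41 cells. Thbs4 gave 44 UMIs in 8 cells, 22 of them in 1 cell. Kera (keratocan) gave 27 UMIs, 18 of them in 1 cell, and 0 in fibroblast comparison cells. Without their own top cells Thbs4, Kera, Col12a1 and Tnc were not past the fold, which left Fmod and Scx of the 6. Col14a1, a collagen of fibril surfaces in tendon and skin, was the lower gene, at 245 against 1200 CPM.

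**Figure D2:**
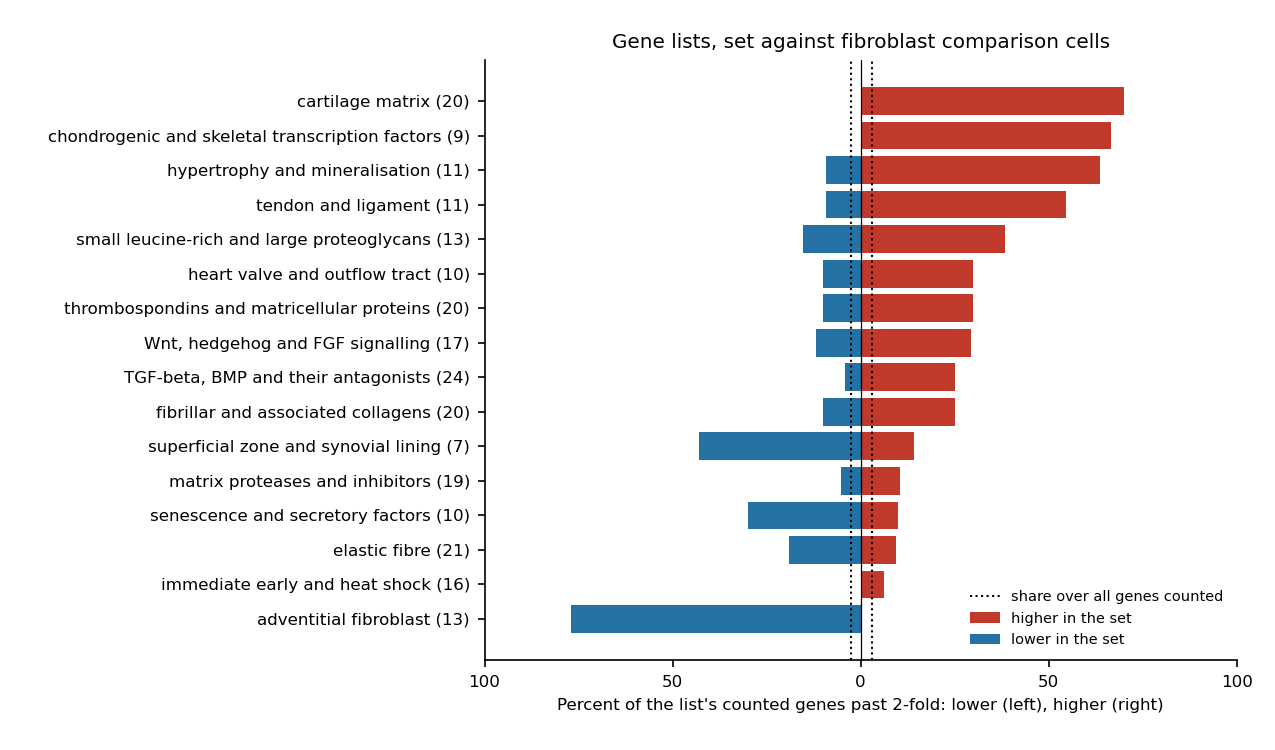
Bars give the percent of each list's counted genes past the fold, higher in the set to the right and lower to the left, against fibroblast comparison cells, with the number counted in brackets. Dotted lines mark the shares over all 6675 genes, 2.98% and 2.62%. Cartilage matrix genes lead on the right with 14 of 20, and adventitial fibroblast genes on the left with 10 of 13.

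Cytl1, a small secreted protein known from cartilage, reached 3746 CPM (3579 to 3918) against 143 CPM. It was found in 40 cells, with a median of 8 UMIs and a highest of 417. Endothelial comparison cells had 656 CPM of Cytl1. Wif1, a secreted inhibitor of Wnt, was at 919 CPM (837 to 1007) against 25.5 CPM, and Dkk3, a related secreted glycoprotein, at 1285 against 197 CPM. Of 17 Wnt, hedgehog and FGF genes counted, 5 were higher (with Frzb, Rspo3 and Fgfr2, the last not without its own top cell) and 2 lower, Sfrp1 at 55.3 against 373 CPM and Sfrp4 at 31.6 against 106 CPM. In the list of TGF-beta, BMP and their antagonists, 6 of 24 genes stood higher and 1 lower. Bmp2, a ligand that drives cartilage and bone formation, was at 134 against 10.5 CPM, and Tgfb2 at 295 against 67.7 CPM. The BMP target genes Id1 and Id3 and the inhibitor Smad7 were also past the fold, Id1 at 202 against 73.2 CPM, and the remaining gene, Grem1, came from a single cell. Without its own top cell Id3 was not past the fold. Fst (follistatin, which binds activin) was lower, at 65.2 against 252 CPM.

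Among other matrix genes, small leucine-rich and large proteoglycans gave 5 higher and 2 lower of 13, with Omd (osteomodulin) at 409 against 94.9 CPM and Vcan (versican) lower at 94.9 against 213 CPM. Fibrillar and associated collagens gave 5 higher and 2 lower of 20. Col8a1, a short-chain collagen of vessel walls, was at 346 against 28.2 CPM, while Col1a1 at 1581 against 1638 CPM and Col3a1 at 1957 against 3665 CPM did not pass. Elastic fibre genes gave 2 higher and 4 lower of 21. Eln (elastin) was at 176 against 544 CPM and Fbln2 (fibulin-2) at 132 against 448 CPM, both lower, and Ltbp2 at 156 against 35.1 CPM was higher. Of 19 matrix proteases and inhibitors, 2 were higher (Mmp13 and Serpine2) and Adamts5, an aggrecan-cleaving protease, was lower at 192 against 576 CPM. Mmp13 was not past the fold without its own top cell.

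Adventitial fibroblast genes went the other way: 10 of 13 were lower and none higher, with a median log2 ratio of -1.67. Dpp4 gave 0 UMIs in the set against 101 CPM. C3 (complement component 3) was at 138 against 1597 CPM and Pi16 (a mark of adventitial fibroblasts) at 482 against 2135 CPM. The list also holds genes of the rule for fibroblast comparison cells, which were not counted. Of 10 senescence and secretory genes, Cdkn1a (p21) was higher at 289 against 137 CPM, though not without its own top cell, and Igfbp3, Igfbp5 and Igfbp6 were lower. Of 16 immediate early and heat shock genes, Fos alone was higher. Of 7 superficial zone and synovial genes, Cytl1 was higher and Cd55, Thbd and Vit were lower. Heart valve and outflow tract genes gave 3 higher and 1 lower of 10. Tbx20, a transcription factor of valve and outflow development, was at 555 CPM (492 to 624) against 33.6 CPM in 23 cells, and Hand2 at 164 against 32.9 CPM in 24 cells.

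Outside the lists, 15 genes were named by the size of their log2 ratio after 10 CPM was added, among those in at least 10% of the cells. Ecrg4, a secreted precursor protein, led on that scale at 1791 CPM (1676 to 1911) against 47.7 CPM, in 42 cells. Cemip, which breaks down hyaluronan, was at 176 against 0.354 CPM (3 UMIs), a ratio of 497 (165 to 2.46e+03). Itga10, the collagen-binding integrin chain of chondrocytes, was at 138 against 5.31 CPM, and Fzd9, a Wnt receptor, at 123 against 0.590 CPM. Clu (clusterin) was at 1443 against 102 CPM, and Meox1, a homeobox factor, at 385 against 27.5 CPM. The others were Tspan13, Pdlim3, Mpped2, Pdzrn4, Myoc, Notum, Crispld1, Cemip2 and Cadm1, with log2 ratios from 2.69 to 3.56.

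Against smooth muscle comparison cells, 459 of 6686 genes were higher (6.87%) and 416 lower (6.22%). With TMM scaling (trimmed mean of M values) the split was 363 higher and 566 lower, and the median log2 ratio over all genes moved from 0.08 to -0.18. Cartilage matrix genes gave 16 higher of 20, and adventitial fibroblast genes 11 higher of 11. Acan was at 23.6 CPM in smooth muscle comparison cells, above the 1.30 CPM of fibroblast comparison cells. Sost (sclerostin) at 59.3 against 740 CPM and Eln at 176 against 1140 CPM were lower in the set. Serpine2, higher against fibroblast comparison cells, was lower against smooth muscle comparison cells. Ccn2, also higher against the former, was not past the fold against the latter (log2 ratio -0.40).

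The 59 cells were not of a kind. The split into 26 cells with a Chad UMI and 33 without was chosen after the values were seen. All 33 cells without Chad had both Comp and Prg4, so the division follows the rule and its values are a description. Of 6830 genes counted between both groups of cells, 436 were higher with Chad (6.38%) and 348 lower (5.10%), and 186 of the former and 116 of the latter did not outlast the loss of their own top cell. Of 20 cartilage matrix genes counted, 16 were higher in the cells with Chad and 2, Cilp and Epyc, were lower. Genes that reached 20 CPM only in the cells with Chad, such as Acan, Mia and Cnmd, could not come out lower. That count is therefore partly fixed by the filter. Chadl, Matn1 and Matn3 of the higher genes and Cilp of the lower were not past the fold without their own top cells. Prelp, among the most abundant genes of the list, gave 271 UMIs with Chad and 576 without. The cells with Chad held 170 of 171 Acan UMIs, 213 of 216 of Mia, 219 of 229 of Col11a1, 178 of 184 of Ucma and all 105 of Cnmd (chondromodulin, an inhibitor of vessel growth). At least 3 chondrocyte markers were seen in 16 of these 26 cells (61.5%, exact binomial 95% interval 40.6 to 79.8%) and in 3 of the 33 without Chad (9.09%, 1.92 to 24.3%). Median depth was 7150 UMIs with Chad and 8437 without, so the cells with Chad were the shallower ones.

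Adventitial genes were split the opposite way. All 11 counted were lower with Chad, though Ly6a not without its own top cell. Genes that reached 20 CPM only in the cells without Chad, such as Pi16 and Clec3b, could not come out higher. Pi16 gave 0 UMIs in the 26 cells, which allows up to 14.6 CPM, and 244 in the 33 cells, 812 CPM (713 to 920), or 482 CPM without the cell with 105 of them. Clec3b (tetranectin) gave 1 and 380 UMIs. Fbln2 gave 0 and 67, Cd55 gave 0 and 43, and Epyc (epiphycan), itself on the cartilage list, 0 and 35. Dcn was lower with Chad, 7994 against 22868 CPM. Thbs1 at 911 and 1121 CPM, Prelp at 1320 and 1916 CPM, Fmod at 1164 and 985 CPM, Scx at 141 and 99.8 CPM and Ecrg4 at 2139 and 1553 CPM were not past the fold between them.

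**Figure D3:**
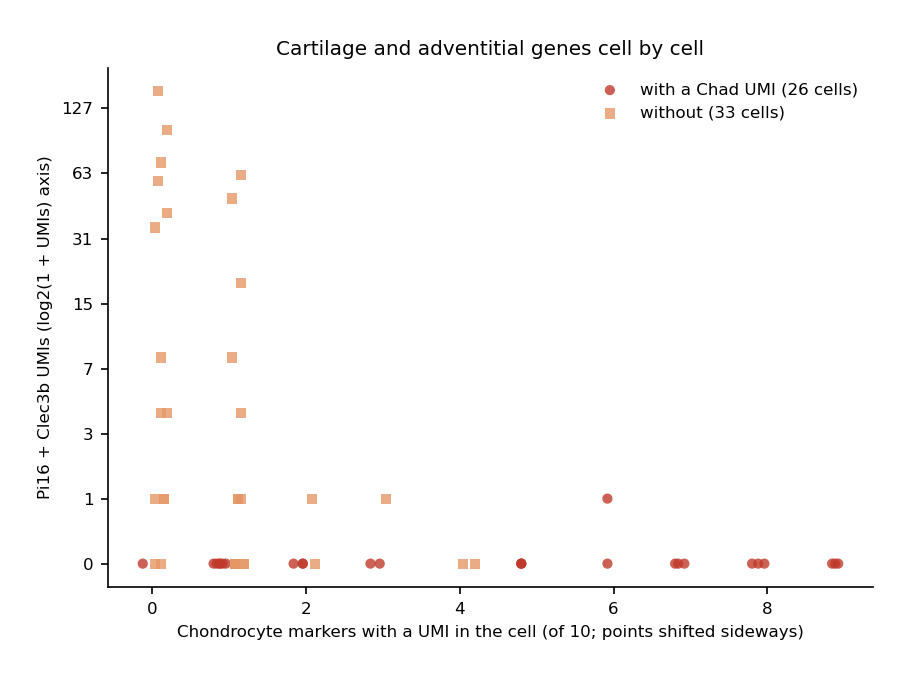
Each point is 1 cell of the set, placed by how many of 10 chondrocyte markers had a UMI and by its UMIs of Pi16 plus Clec3b, on a log2(1 + UMIs) axis, coloured by a Chad UMI. Of the 26 cells with Chad, 1 had any Pi16 or Clec3b UMI, against 22 of the 33 without, and the cells with most of those UMIs had at most 1 chondrocyte marker.

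Several other groups differed across the same split. The genes higher with Chad included Wif1 (1827 against 299 CPM), Omd (887 against 83.2 CPM), Col8a1 (818 against 23.3 CPM), Fn1 (fibronectin, 2231 against 389 CPM), Runx1 (74 against 6 UMIs) and Myoc (1432 against 86.5 CPM). Without each gene's own top cell among the 33, Wif1, Fn1 and Myoc were at 161, 227 and 28.2 CPM there. The levels with Chad fell too when the top cell among those 26 cells was left out. Wif1, Omd and Col8a1 then stood at 1557, 618 and 552 CPM, and Fn1, Runx1 and Myoc at 1641, 309 and 1050 CPM. Bmp5 gave 25 UMIs in 14 cells with Chad and 0 in the others, at least 12.2-fold higher by the floor of 3 counts. Immediate early and heat shock genes gave 7 higher and none lower of 16, and Zfp36 of the 7 was not past the fold without its own top cell. Fos was at 594 against 36.6 CPM, with 66 and 40 of its 133 UMIs in 2 cells and 285 CPM with Chad without the first of them. Egr1 was at 580 against 86.5 CPM. Such genes respond to handling within minutes, and the part of dissociation in these values was not tested. Tbx20, Hand2, Gata4 and Msx1 were lower with Chad, though Gata4 not without its own top cell.

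Within the 33 cells without Chad, Tbx20 marked a further division, also chosen after its values were seen. Of these cells, 20 had a Tbx20 UMI and 13 had none. Thbs1 was at 1841 CPM (1649 to 2048) in the 20 cells, 17 of which had a UMI, and gave 0 UMIs in the 13 cells. Ecrg4 gave 466 UMIs and 1 UMI, Scx 30 and 0, and Meox1 162 and 5. Comp and Prg4 themselves were at 2360 and 1956 CPM in the 20 cells and at 604 and 621 CPM in the 13. Pi16 was at 257 CPM in the 20 cells and at 1676 CPM (1450 to 1927) in the 13, beside 2135 CPM in fibroblast comparison cells. Clec3b was at 415 and 2586 CPM, beside 2672 CPM. A single cell gave 105 of the 197 Pi16 UMIs of the 13 cells, and Pi16 was at 874 CPM without it. Among the 20 cells, Pi16 was in 7 and Clec3b in 6. The top cell of each gene there gave 25 of 47 Pi16 UMIs and 37 of 76 Clec3b UMIs. Without it the levels in the 20 cells were 125 CPM for Pi16 and 222 CPM for Clec3b. C3 was at 459 CPM (345 to 599) in the 13 cells, below the 1597 CPM of fibroblast comparison cells, and Dpp4 was at 0 throughout. The defining genes had a median of 4 Comp UMIs in the 13 cells, with a highest of 15, and a median of 1 Prg4 UMI. One of the 13 held 50 of their 73 Prg4 UMIs, and Prg4 was at 222 CPM without it.

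**Figure D4:**
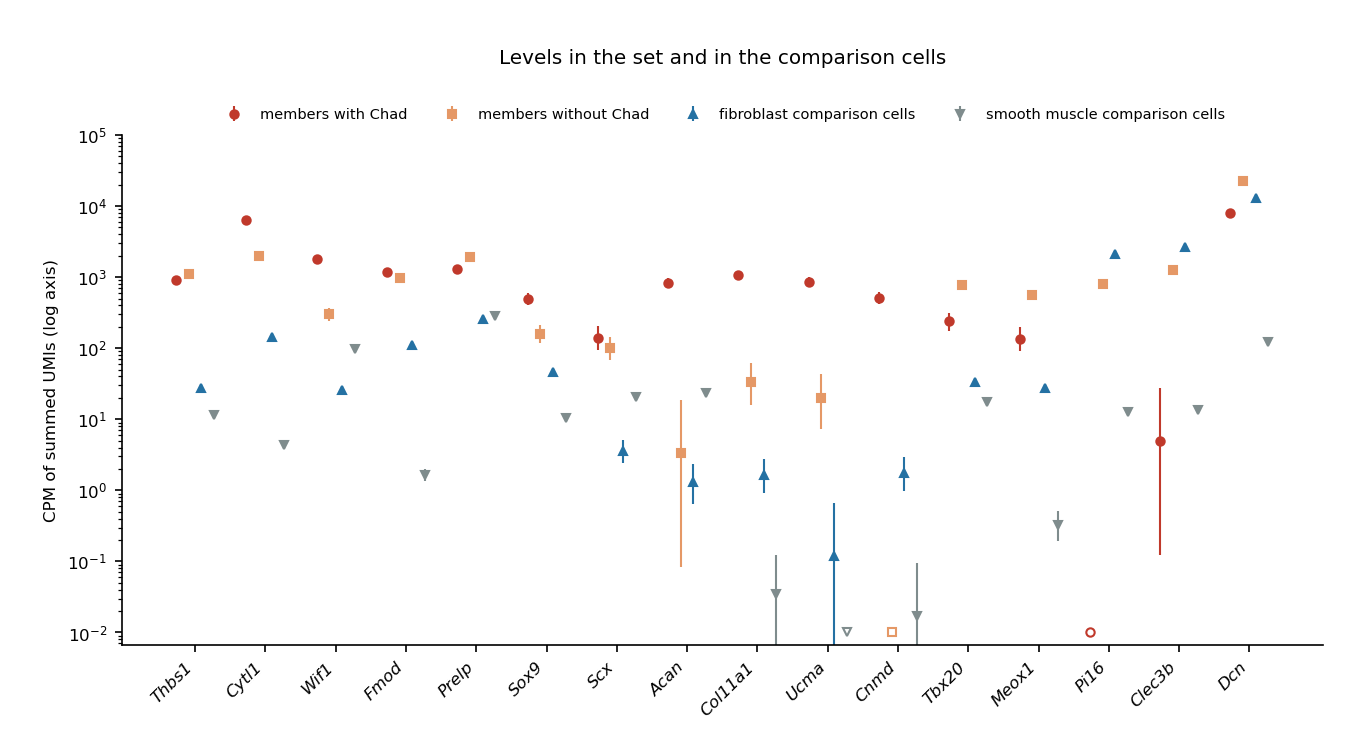
Points give CPM of summed UMIs on a log axis with exact Poisson 95% intervals for 26 members with Chad, 33 members without, 1119 fibroblast and 4782 smooth muscle comparison cells. Open symbols at the foot mark 0 UMIs, and intervals that reach below the axis are cut there. Thbs1, Fmod, Prelp and Scx lie close together in both groups of members, Acan, Col11a1, Ucma and Cnmd are high with Chad, and Pi16 is at 0 with Chad and 812 CPM without.

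The planned division by the gene with most UMIs gave 22 cells led by Comp, 21 by Prg4, 10 by Chad and 4 by Col2a1, with 2 ties. Cells led by Prg4 held 2 Acan UMIs, 0 of Cnmd and 0 of Snorc. Ucma was at 2866 CPM in the 4 cells led by Col2a1, 676 CPM in those led by Chad, 292 CPM in those led by Comp and 5.33 CPM in those led by Prg4. The Col10a1 cell gave 43 of the 60 UMIs in the cells led by Comp, which stood at 87.3 CPM without it. Tbx20 was at 680 CPM in cells led by Comp and 752 CPM in cells led by Prg4, with 0 UMIs in cells led by Chad or Col2a1. The 12 cells with a Col2a1 UMI held 162 of 171 Acan UMIs, 101 of 110 of Snorc and all 13 of Matn3, and the 15 cells with Chad but no Col2a1 held 8, 9 and 0. Mia, by contrast, was at 606 CPM in those 15 cells and 1613 CPM in the 12 (1052 CPM without its top cell), and Runx1 at 393 and 297 CPM.

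Likeness to the defining genes, which chose the cells, was also read across the 59 cells. With Chad at 0 UMIs in 33 of them, this likeness partly restates the split by Chad and adds no support to it. It was measured by Spearman correlation of log(1 + UMIs per 10000) over 4901 genes with a UMI in at least 20% of the cells, and is a description, since cells share libraries and differ in depth. Chad was most like Mia (0.81), Runx1 (0.75), Thsd4 (0.73), Col11a1 (0.72) and Itga10 (0.71). Col2a1 was most like Acan (0.75), Cnmd (0.71), Col9a2 (0.69), Ucma (0.68) and Col11a1 (0.66). Prg4 was most like Vim (0.69), Dkk3 (0.67), Tbx20 (0.61), 1110059G10Rik (0.57) and Meox1 (0.53). Comp was most like Prelp (0.62), Thbs1 (0.57), Fmod (0.55), Dhrs3 (0.54) and Limch1 (0.52).

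The same shares of cells were read at equal depth, with each cell thinned to 1000 UMIs. Thbs1 was then in 42.4% of the 59 cells (55.9% unthinned), 1.52% of fibroblast comparison cells and 0.0881% of T cell comparison cells, which should lack it. Acan was in 10.2% (30.5% unthinned), with 0.0894% of fibroblast, 2.20% of smooth muscle and 0.529% of T cell comparison cells. Cytl1 was in 54.2%, with 5.90% of fibroblast and 1.14% of T cell comparison cells. Ucma was in 46.2% of the cells with Chad and in 0 of the 33 without, which allows a share of up to 9.09%. Unthinned median depths were 8054 UMIs in the set and 4166 UMIs in T cell comparison cells.

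The start regions of Col11a1, Ucma and Acan are shown because these genes were high together in the cells with Chad, and that of Chad because it divides the cells, as a gene of the rule. They are the 250 bases before the transcript start in the RefSeq table for GRCm38.p6, all on the plus strand, 5′ to 3′, with motif matches on either strand in capitals. Chad lies at chr11:94564797-94565046, Col11a1 at chr3:114030290-114030539, Ucma at chr2:4975872-4976121 and Acan at chr7:79052976-79053225.
Chad: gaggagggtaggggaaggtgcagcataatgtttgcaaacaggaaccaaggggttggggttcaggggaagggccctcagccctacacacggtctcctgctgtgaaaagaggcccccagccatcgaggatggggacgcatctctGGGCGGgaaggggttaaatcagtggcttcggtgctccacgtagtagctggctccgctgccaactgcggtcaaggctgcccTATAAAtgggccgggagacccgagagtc
Col11a1: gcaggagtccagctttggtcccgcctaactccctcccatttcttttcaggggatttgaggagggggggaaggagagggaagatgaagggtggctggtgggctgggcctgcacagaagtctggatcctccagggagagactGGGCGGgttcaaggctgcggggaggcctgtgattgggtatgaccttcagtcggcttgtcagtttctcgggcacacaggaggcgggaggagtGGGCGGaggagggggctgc
Ucma: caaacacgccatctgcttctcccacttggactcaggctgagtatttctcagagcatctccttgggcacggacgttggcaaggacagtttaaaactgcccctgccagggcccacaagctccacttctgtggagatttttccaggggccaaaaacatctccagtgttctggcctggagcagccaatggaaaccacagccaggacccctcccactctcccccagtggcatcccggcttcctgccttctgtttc
Acan: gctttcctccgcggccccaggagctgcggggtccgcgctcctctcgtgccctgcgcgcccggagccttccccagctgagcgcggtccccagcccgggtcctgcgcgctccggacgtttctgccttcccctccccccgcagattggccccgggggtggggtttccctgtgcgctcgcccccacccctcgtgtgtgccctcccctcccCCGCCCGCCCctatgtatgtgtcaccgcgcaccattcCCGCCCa
Of 25 cartilage matrix genes, 20 had an entry, with 23 start regions. The core letters bound by SOX factors, ACAAT, were in 6 of those 23 (26.1%) and in 27.7% of all 32851 start regions of that length, and in none of the 4 shown. The GC box GGGCGG was in 10 of 23 (43.5%) against 32.7% of all, among them Chad, Col11a1 and Acan, where 2 matches overlap. The TATA box TATAAA was in 2 of 23 (8.70%) against 12.4% of all, Chad and Col11a2. A match is a description of letters and not a site in use.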

How the data were processed

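Droplet 3′ RNA and hashtag libraries of 3 aged wildtype mice were deposited by the authors as 1 pooled matrix of raw UMI counts over 32285 genes and 3 hashtags, made with Cell Ranger 6.0.1 per the file headers. The submitters' processing notes name Cell Ranger, Seurat 4.0.5 and the build mm10. No column was left unmapped. Hashtag states were called here with HTODemux (Seurat 5.3.0, quantile 0.99) and doublets with Scrublet (scanpy 1.11.5, expected rate 0.06); calls were kept in and left out only as an alternative. Counts were summed over cells and divided by each group's total. The fold rule used a pseudocount of 10 CPM. Intervals are exact Poisson or Clopper-Pearson at 95% and cover counting error only.

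The members and gene lists were chosen with earlier results of these data known. Named genes are the markers and 10 fixed genes, up to 3 genes each way of each list by log2 ratio to fibroblast comparison cells, and the 15 highest outside the lists; other list genes were named after their values were seen. The planned edgeR test by animal needed 10 cells of each animal and was not run, since 2, 4 and 1 cells carried exactly 1 hashtag and 51 carried none. Counting of shared reads between overlapping genes is not given in the sources used here. The fold rule was tested on simulated data.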

Additional observations from a re-analysis of the deposited data

How the results depend on the processing

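No paired analysis was possible because the hashtags assign only 2, 4 and 1 of the 59 cells to the 3 animals, too few for a test by animal. The planned edgeR test by animal, with its DESeq2, filter, block and leave-one-animal-out alternatives, was not run. With a pseudocount of 50 CPM, genes past the fold came to 120 higher and 101 lower against fibroblast comparison cells, and 291 and 269 against smooth muscle comparison cells, as that pseudocount shrinks every ratio. Under the other planned settings (pseudocount 1 CPM, no low filter, TMM, a sum of at least 10, no doublets, 0 T cell UMIs, mitochondrial share under 10%, mean of each cell's CPM, no mesothelial markers) and without the Col10a1 cell, chosen after seeing the data, these counts stayed within 1.5 times of the main ones, as did the number of cells under 4 other rules. Of 155 ratios of named genes under 11 settings, 1705 values in all, 1357 stayed near the main value, 343 moved in size and 5 changed direction. Without the Col10a1 cell, Col10a1 and Grem1 came to -0.02 and -0.02 on the log2 scale against fibroblast comparison cells and to -0.02 and -0.07 against smooth muscle comparison cells. With 0 T cell UMIs, Fos came to -0.40 against smooth muscle comparison cells; 66 of its 133 UMIs were in 1 cell. With 59 cells and 1 pool, no value carries a spread between animals. Leaving out each higher gene's own top cell, also chosen after seeing the data, kept 150 of 199 genes against fibroblast and 358 of 459 against smooth muscle comparison cells, 250 of 436 higher with Chad and 232 of 348 lower with Chad.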
